A study of Mus musculus with 16 samples.

Results

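The 10 genes described here encode the PERK and ATF4 arm of the integrated stress response. They are Eif2ak3, Eif2s1, Atf4, Ddit3, Atf3, Trib3, Asns, Chac1, Ppp1r15a and Sesn2. They were chosen by name, and all 10 were found among the 21640 genes of the deposited count table. All 10 passed the filter on low counts at both time points. The RNA came from whole thyroids of 16 male wild-type C57Bl/6J mice, with 1 library per mouse. Mice were 8 weeks old when the diets began. Control mice ate chow (CD), and the others received high-fat food together with sucrose water (HF+SD). Thyroids were taken after 3 or 6 weeks, with 4 mice in each of the 4 groups. The question behind the comparison is how overnutrition changes the stress response transcripts of the thyroid.

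The integrated stress response slows protein synthesis when a cell is under strain. PERK, encoded by Eif2ak3, sits in the membrane of the endoplasmic reticulum (ER), senses unfolded proteins in the ER lumen and phosphorylates eIF2α, encoded by Eif2s1. General translation then falls while the mRNA of the transcription factor ATF4 is translated more efficiently. ATF4 and its partner CHOP, encoded by Ddit3, switch on genes for amino acid supply, redox balance, feedback and, under prolonged stress, cell death. Thyrocytes make and secrete very large amounts of thyroglobulin, so their ER carries a heavy folding load. PERK activity and the phosphorylation of eIF2α are events on proteins, and ATF4 is controlled largely at translation. The values below are transcript levels alone.

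Library totals ran from 30025256 to 48508653 counts. Counts were expressed as CPM, counts of a gene per 1000000 counts of its library, with library sizes adjusted by trimmed-mean (TMM) factors. All 9 thyrocyte markers examined were detected, and thyroglobulin took 26.8% to 29.7% of the counts at 3 weeks and 4.73% to 13.6% at 6 weeks. The 9 thyrocyte markers summed to 3057 to 3856 CPM on the CD and 3491 to 4117 CPM on the HF+SD at 3 weeks. At 6 weeks they summed to 1566 to 2862 CPM and 2819 to 3202 CPM. The 3 parathyroid markers summed to 2179 to 14750 CPM on the CD and 460 to 1966 CPM on the HF+SD at 6 weeks, and overlapped at 3 weeks. Libraries of 3 CD mice at 6 weeks stood apart. Skeletal muscle genes, 36 in the list, took 4.00%, 17.0% and 12.2% of the counts of M43, M45 and M48, against 0.117% in the remaining CD mouse M22 and 0.144% to 0.478% in the HF+SD-fed mice. At 6 weeks 33 of the 34 muscle genes tested fell on the HF+SD, 5 of 6 adipocyte and 3 of 5 C-cell markers fell, and all 7 endothelial, 7 of 8 macrophage and 4 of 5 smooth muscle markers rose. At 3 weeks muscle genes took 0.0136% to 0.0268% of the counts, with a summed level of 147 to 194 CPM on the CD and 231 to 275 CPM on the HF+SD. All 7 endothelial markers also rose at 3 weeks, as did 3 of 6 fibroblast and 2 of 5 smooth muscle markers, while 3 of 5 C-cell markers and 4 of 6 adipocyte markers fell. Beside these counts, 12.0% of all genes tested were higher and 9.55% lower at 6 weeks at an adjusted p under 0.05. At 3 weeks the shares were 9.07% and 5.78%. The legends of the study give fewer CD mice at 6 weeks than were deposited and do not name them. All 4 were used here, and with 1 of them left out the number of genes called at 6 weeks ran from 2390 to 5743, against 3927 with all. In whole tissue, fewer cells of a type and less RNA per cell cannot be told apart.

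The promoter sequences of the genes show which members carry the DNA letters that ATF4 and its partners are known to bind. RefSeq promoters (GRCm38.p6, 250 bases before to 50 after the start) were found for all 10 genes. The composite C/EBP-ATF element, searched as TGATGNAA on both strands, occurred in Asns, Atf3, Chac1 and Trib3, thus in 4 of 10, and in 3.97% of all 32851 promoters. A full cAMP response element, searched as TGACGTCA, occurred in 1 of 10, namely Ppp1r15a, and in 1.79% of all promoters. This palindrome reads the same on both strands. The ER stress response element, the motif of ATF6 and NF-Y, occurred in 0 of 10 members and in 0.119% of all promoters, and no match says only that these letters are absent from the window. The 5 windows with a match are given 5′ to 3′ on the strand of the gene, with the motif in capitals. Positions count from the first transcribed base, and the Trib3 match lies just inside the transcript. A match is a description and not a shown binding site.
Atf3 (chr1:191183390-191183489, minus strand, motif at -110 to -103): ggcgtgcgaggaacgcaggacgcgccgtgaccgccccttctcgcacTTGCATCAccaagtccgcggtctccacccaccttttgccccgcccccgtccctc
Chac1 (chr2:119351003-119351102, plus strand, motif at -193 to -186): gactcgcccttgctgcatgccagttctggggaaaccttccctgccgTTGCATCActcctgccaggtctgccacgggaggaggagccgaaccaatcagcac
Asns (chr6:7693210-7693278, minus strand, motif at -23 to -16): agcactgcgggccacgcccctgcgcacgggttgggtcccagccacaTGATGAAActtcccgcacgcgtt
Trib3 (chr2:152344028-152344057, minus strand, motif at 15 to 22): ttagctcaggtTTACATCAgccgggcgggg
Ppp1r15a (chr7:45526269-45526326, minus strand, motif at -12 to -5): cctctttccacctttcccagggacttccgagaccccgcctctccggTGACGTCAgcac
Chac1 and Atf3 hold the same 8 letters, TTGCATCA, which is the element read from the other strand. Asns holds TGATGAAA in the forward direction.

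After 3 weeks, Atf4 and Trib3 fell on the HF+SD. Atf4 was 1.73-fold lower and Trib3 1.78-fold lower, and for both genes every HF+SD-fed mouse was below every CD mouse. For 9 of the 10 genes the log2 fold change, HF+SD minus CD, was below 0, with a median of -0.37 against -0.00831 over all genes tested. These values share the same mice, and the CD mouse M55 was the highest of its group for 8 of the 10 genes. Called genes, at an adjusted p under 0.05 by edgeR's quasi-likelihood test, made up 2 of the 10 members, both lower. Across all 17238 genes tested, 14.9% were called, with 9.07% higher and 5.78% lower. Groups did not overlap for 2 of the 10 members, against 23.6% of all genes, so that share is near the background. The unadjusted p was under 0.05 for 5 of the 10. The share of all genes under that unadjusted threshold was not computed, so nothing is read from this count.

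**Figure D1:**
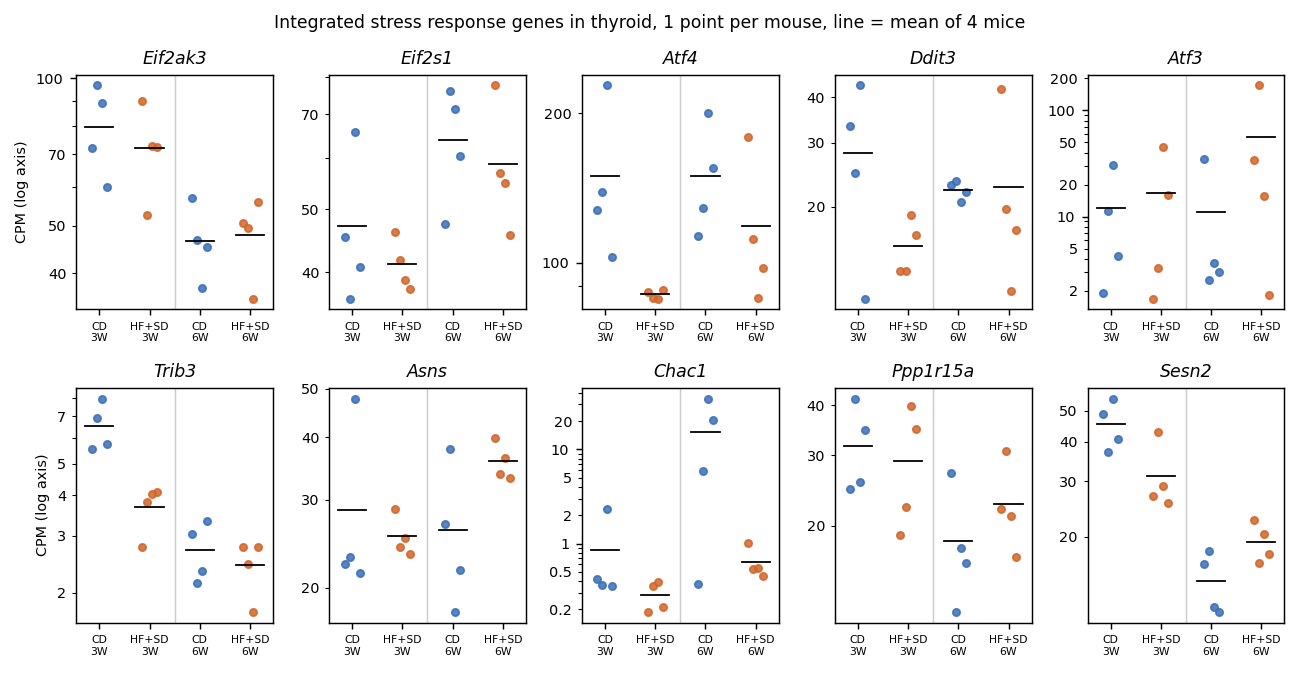
CPM on a log axis for each of the 10 genes, with 1 point per mouse (blue CD, orange HF+SD) and a line at the mean of 4 mice. At 3 weeks the HF+SD-fed mice lie between 84.7 and 88.2 CPM for Atf4 and between 2.77 and 4.08 CPM for Trib3, below all CD mice. At 6 weeks the diets overlap for all 10 genes, and Chac1 is high in 3 of the 4 CD mice.

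The kinase and its substrate did not pass the test at 3 weeks. Eif2ak3 (ENSMUSG00000031668.15) stood at 72.0, 96.8, 88.8 and 60.1 CPM in the CD mice M53, M54, M55 and M96, and at 90.0, 52.6, 72.8 and 72.3 CPM in the HF+SD-fed mice M7, M19y, M20y and M31. Those ranges lie over each other, with a log2 fold change of -0.14 (SE 0.18, 95% interval -0.55 to 0.26, adjusted p = 0.63). Eif2s1 (ENSMUSG00000021116.11) stood at 45.3, 36.4, 65.7 and 40.8 CPM on the CD and at 46.1, 41.7, 38.9 and 37.7 CPM on the HF+SD. M55 was the high value, and the log2 fold change was -0.19 (SE 0.17, adjusted p = 0.466).

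Atf4 (ENSMUSG00000042406.9), the transcription factor at the centre of the response, stood at 128, 139, 228 and 103 CPM in the CD mice M53, M54, M55 and M96. In the HF+SD-fed mice M7, M19y, M20y and M31 it stood at 87.4, 85.2, 84.7 and 88.2 CPM. The HF+SD-fed mice were closely alike, at 86.4 ± 1.69 CPM (SD, n = 4), whereas the CD mice spread widely, at 149 ± 54.4 CPM (SD, n = 4). The log2 fold change was -0.79 (SE 0.21, 95% interval -1.25 to -0.33, adjusted p = 0.0306). The exact two-sided permutation test gave p = 0.0286, the smallest that 4 mice against 4 allow. Without M55, the highest CD mouse, the log2 fold change was -0.51 (adjusted p = 0.00561), in a fit that called 19.4% of all genes. With any 1 HF+SD-fed mouse left out, the adjusted p rose to between 0.0707 and 0.0785 while the log2 fold change stayed between -0.80 and -0.78.

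Ddit3 (ENSMUSG00000025408.16), encoding the pro-apoptotic factor CHOP, stood at 33.3, 24.9, 43.2 and 11.2 CPM on the CD and at 13.3, 13.3, 18.98 and 16.7 CPM on the HF+SD. M96 was the lowest of all 8 mice and the other 3 CD mice were above all HF+SD-fed mice. The log2 fold change was -0.85 (SE 0.33, adjusted p = 0.116), and without M96 it was -1.12 (adjusted p = 0.0102). DESeq2 called the gene lower over all 8 mice (adjusted p = 0.0423), in a fit that called 21.5% of all genes. Ddit3 overlaps Mars and Gm4189 on the opposite strand, and a second annotated gene model of the same name. No source used here says whether counting used strand, which leaves its counts uncertain. Atf3 (ENSMUSG00000026628.14), a stress and immediate early transcription factor, stood at 1.91, 11.2, 30.4 and 4.26 CPM on the CD and at 1.69, 3.25, 45.6 and 15.96 CPM on the HF+SD. The spread within each diet was larger than the difference between diets (log2 fold change 0.48, SE 1.01, adjusted p = 0.78).

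Trib3 (ENSMUSG00000032715.10), a pseudokinase induced by ATF4 and CHOP that dampens ATF4 activity, stood at 5.57, 6.94, 7.95 and 5.75 CPM in the CD mice M53, M54, M55 and M96. In the HF+SD-fed mice M7, M19y, M20y and M31 it stood at 2.77, 3.81, 4.03 and 4.08 CPM. The diets did not overlap, with 6.55 ± 1.11 against 3.67 ± 0.614 CPM (SD, n = 4 each). The log2 fold change was -0.83 (SE 0.17, 95% interval -1.22 to -0.44, adjusted p = 0.0123, exact permutation p = 0.0286). With each mouse left out in turn the adjusted p stayed between 0.0154 and 0.0337. When a score of muscle gene expression was added to the model, Trib3 and Atf4 had log2 fold changes of -0.64 and -0.39, and neither passed the test (adjusted p = 0.0678 and 0.201). In that fit 0 of the 10 members were called, against 10.3% of all genes. The summed level of the muscle genes was higher in every HF+SD-fed mouse at 3 weeks. The score itself, a mean of log2 CPM, ran from -1.94 in M55 to 0.53 in M96 on the CD. M55, with the lowest score, also had the highest Atf4 and Trib3, and muscle genes took at most 0.0268% of the counts at 3 weeks. On the HF+SD the score ran from -0.43 to 0.28, so the diets overlapped in it. This fit therefore does not show what part muscle content had in the values of Atf4 and Trib3. The part of the endothelial, fibroblast, smooth muscle, C-cell and adipocyte markers, which also moved with diet, was not tested.

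Among the remaining targets, Sesn2 (ENSMUSG00000028893.9), which restrains mTORC1 when amino acids are scarce, stood at 48.9, 37.2, 54.8 and 40.6 CPM on the CD and at 27.0, 42.9, 28.9 and 25.6 CPM on the HF+SD. M19y alone of the HF+SD-fed mice reached the CD range. The log2 fold change was -0.55 (SE 0.18, adjusted p = 0.0682), and DESeq2 called the gene lower (adjusted p = 0.0254). That DESeq2 fit called 21.5% of all genes. Chac1 (ENSMUSG00000027313.4), which degrades glutathione, was barely detected, at 0.42, 0.37, 2.31 and 0.36 CPM on the CD and 0.19, 0.36, 0.39 and 0.21 CPM on the HF+SD. M55 held the high value, and the log2 fold change of -1.59 (SE 0.67, adjusted p = 0.142) became -0.41 without it. Asns (ENSMUSG00000029752.13), which makes asparagine, stood at 22.4, 23.0, 47.8 and 21.4 CPM on the CD and at 28.8, 24.1, 25.2 and 23.3 CPM on the HF+SD. Again M55 was far above the rest, and the log2 fold change moved from -0.18 (adjusted p = 0.656) to 0.19 without that mouse. Ppp1r15a (ENSMUSG00000040435.13), encoding the GADD34 subunit that brings phosphatase to eIF2α, ranged from 24.7 to 41.6 CPM on the CD and from 18.99 to 39.8 CPM on the HF+SD (log2 fold change -0.13, SE 0.25, adjusted p = 0.767).

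After 6 weeks, 1 of the 10 genes was called. Chac1 fell on the HF+SD, 23.8-fold by the fitted fold change, and its high values were in the 3 CD mice rich in muscle transcripts. The other 9 genes did not pass the test. Of the 10 log2 fold changes 6 were above 0 and 4 below, with a median of 0.0353 against -0.011 over all genes tested. Across all 18249 genes tested, 21.5% were called, with 12.0% higher and 9.55% lower on the HF+SD. Diets did not overlap for 23.8% of all genes and for 0 of the 10 members.

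**Figure D2:**
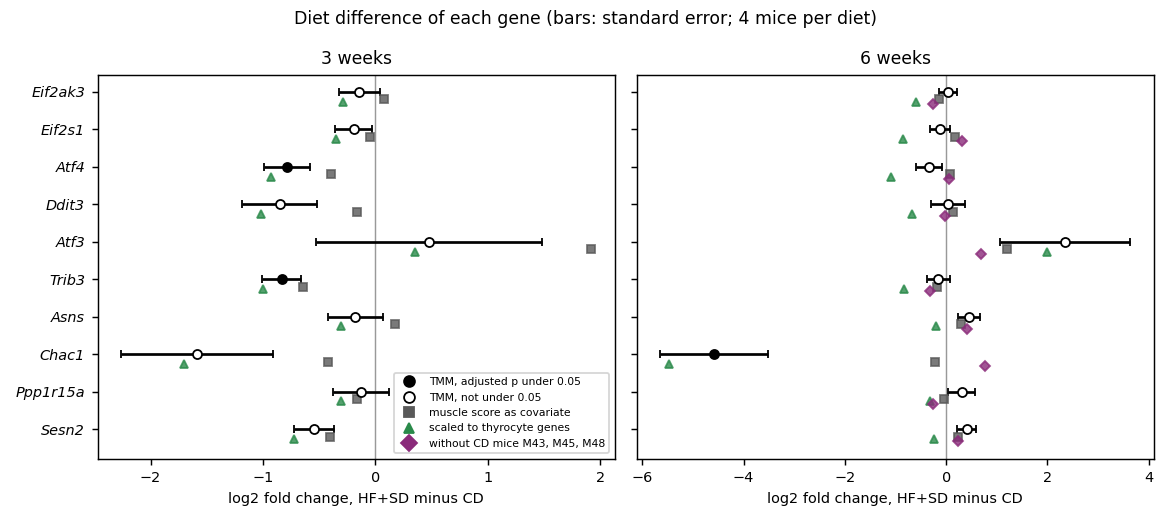
Log2 fold change, HF+SD minus CD, of each gene at 3 and 6 weeks (circles, filled where the adjusted p was under 0.05, bars are the SE, 4 mice per diet), with alternative fits as squares, triangles and diamonds. Atf4 and Trib3 are filled at 3 weeks and Chac1 at 6 weeks. The Chac1 value at 6 weeks moves from -4.58 to 0.76 without the CD mice M43, M45 and M48.

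Chac1 stood at 0.37, 5.87, 34.7 and 20.4 CPM in M22, M43, M45 and M48 on the CD, which came from 13, 257, 1068 and 716 counts. In the HF+SD-fed mice M5, M18, M34 and M35 it stood at 1.00, 0.53, 0.55 and 0.46 CPM, from 38, 17, 19 and 17 counts. The CD mouse M22 was below all 4 HF+SD-fed mice, so the diets overlapped. The log2 fold change was -4.58 (SE 1.07, 95% interval -6.98 to -2.17, adjusted p = 0.0177), and the exact permutation test gave p = 0.143. The order of the CD mice in Chac1 was also their order in muscle transcripts, with shares of 0.117%, 4.00%, 17.0% and 12.2%. Without M45 and M48 the log2 fold change was -2.28 (adjusted p = 0.124), and without M43, M45 and M48 it was 0.76 (adjusted p = 0.507). With that muscle score in the model it was -0.22 (adjusted p = 0.793), in a fit that called 10.3% of all genes. The fit without M43, M45 and M48 left 1 CD mouse and called 5.18% of all genes. Chac1 was also not called without M18, M34 or M35, where the adjusted p was 0.0559 to 0.0582. Those fits called 10.4% to 12.6% of all genes, against 21.5% with all mice.

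**Figure D3:**
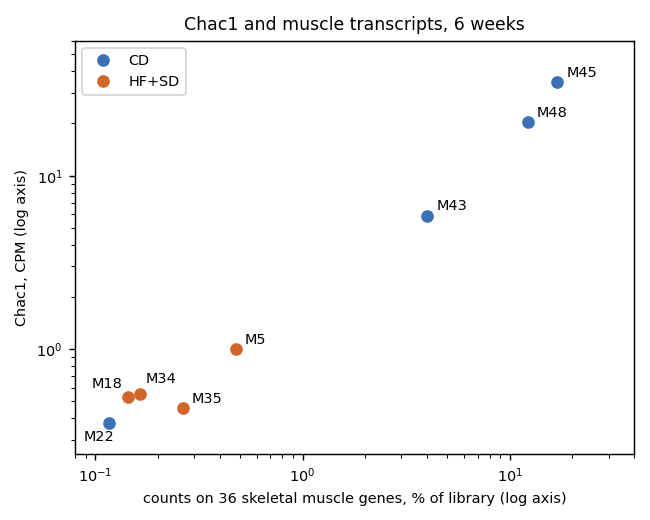
Chac1 (CPM, log axis) against the percentage of each library's counts that fell on 36 skeletal muscle genes (log axis) in the 8 mice at 6 weeks, blue CD and orange HF+SD. The CD mice M43, M45 and M48 are high on both axes. M22 lies at 0.117% and 0.37 CPM beside the HF+SD-fed mice.

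The kinase and its substrate overlapped between diets at 6 weeks. Eif2ak3 stood at 56.9, 46.6, 37.2 and 45.2 CPM on the CD and at 50.6, 49.5, 35.5 and 55.8 CPM on the HF+SD (log2 fold change 0.0411, SE 0.18, 95% interval -0.36 to 0.44, adjusted p = 0.89). Eif2s1 stood at 47.5, 76.1, 71.4 and 60.4 CPM on the CD and at 77.7, 56.9, 54.97 and 45.7 CPM on the HF+SD (log2 fold change -0.12, SE 0.20, adjusted p = 0.707). Each diet held both high and low mice.

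Atf4 stood at 113, 129, 200 and 155 CPM in M22, M43, M45 and M48 on the CD and at 179, 112, 85.1 and 97.7 CPM in the HF+SD-fed mice M5, M18, M34 and M35. M5 lay within the CD range and the other HF+SD-fed mice lay below all CD mice. The log2 fold change was -0.34 (SE 0.26, adjusted p = 0.391), and -0.60 without M5 (adjusted p = 0.0973). Without the 3 muscle-rich CD mice it was 0.0587. Ddit3 was even across the CD mice, at 23.0, 23.5, 20.6 and 21.9 CPM, and uneven across the HF+SD-fed mice, at 42.2, 19.8, 11.8 and 17.2 CPM. M5 lay above all CD mice and the other HF+SD-fed mice below them, so the means were nearly equal, at 22.3 ± 1.28 and 22.7 ± 13.4 CPM (SD, n = 4 each, adjusted p = 0.959). Without M5 the log2 fold change of Ddit3 was -0.45 (adjusted p = 0.137).

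Atf3 stood at 34.8, 2.51, 3.64 and 2.99 CPM on the CD and at 33.7, 172, 15.7 and 1.83 CPM on the HF+SD at 6 weeks. Both diets spanned over an order of magnitude, and the log2 fold change of 2.35 had an SE of 1.29 (adjusted p = 0.22). The summed level of 10 immediate early genes, which respond within minutes to handling and many stimuli, ran alongside. It was 757, 145, 180 and 287 CPM in M22, M43, M45 and M48 and 910, 1451, 911 and 195 CPM in M5, M18, M34 and M35. The lowest Atf3 values, in M43, M45, M48 and M35, thus belonged to the 4 mice with the lowest immediate early sums, and the highest, in M18, to the mouse with the highest sum. At 3 weeks M20y had the highest of both, at 45.6 CPM of Atf3 and an immediate early sum of 1559 CPM, and M7 the lowest of both, at 1.69 and 259 CPM, whereas M55 had 30.4 CPM of Atf3 with a sum of 670 CPM. The part of the immediate early response in the Atf3 values was not tested.

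The remaining targets did not pass the test at 6 weeks. Asns stood at 26.8, 37.8, 17.9 and 21.8 CPM on the CD and at 39.9, 33.8, 36.3 and 33.2 CPM on the HF+SD. M43 alone of the CD mice reached the HF+SD range, and the log2 fold change was 0.46 (SE 0.22, 95% interval -0.0286 to 0.94, adjusted p = 0.16). Without M43 it was 0.66 (adjusted p = 0.0248). Sesn2 stood at 16.4, 18.1, 12.0 and 11.6 CPM on the CD and at 22.5, 16.5, 20.4 and 17.7 CPM on the HF+SD (log2 fold change 0.41, SE 0.19, adjusted p = 0.149). Trib3 stood at 3.04, 2.15, 2.34 and 3.33 CPM on the CD and at 2.77, 2.45, 1.74 and 2.77 CPM on the HF+SD (log2 fold change -0.16, SE 0.23, adjusted p = 0.659). Ppp1r15a stood at 27.1, 12.2, 17.6 and 16.2 CPM on the CD and at 21.99, 30.7, 21.1 and 16.7 CPM on the HF+SD (log2 fold change 0.31, SE 0.26, adjusted p = 0.435). For Asns and Sesn2 the lowest values were in the muscle-rich mice M45 and M48, and the highest CD value of both was in M43, also rich in muscle transcripts.

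The scaling bears on the direction at 6 weeks. Scaled to 9 thyrocyte genes, the all-gene median of the log2 fold change went from -0.011 to -0.68, and 51.7% of all genes were called, with 47.8% lower. Of the 10 members 5 were called lower, a share near that background, namely Eif2ak3, Eif2s1, Atf4, Trib3 and Chac1. Their log2 fold changes under that scaling were -0.60, -0.86, -1.09, -0.82 and -5.47. At 3 weeks the same scaling moved the median of all genes to -0.18 and called 15.7% of all genes, with 11.2% lower against 5.78% before. Of the 10 members 4 were called lower, Atf4 and Trib3 with Ddit3 and Sesn2.

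A model of all 16 libraries with an interaction of diet and time asked whether the diet effect differed between 3 and 6 weeks. None of the 10 members passed it, and 0.0792% of all 18929 genes passed. For 2 members the unadjusted p was under 0.05, a threshold for which the share of all genes was not computed. The log2 difference, effect at 6 weeks minus effect at 3 weeks, was 0.91 for Sesn2 (SE 0.26, adjusted p = 0.0712) and -3.07 for Chac1 (SE 1.37, adjusted p = 0.199). It was 0.62 for Trib3 (SE 0.30, adjusted p = 0.233) and 0.39 for Atf4 (SE 0.36, adjusted p = 0.562). DESeq2 called Sesn2 (0.95, adjusted p = 0.0144), in a fit that passed 9.46% of all genes. Sesn2 was also called without the CD mouse M22 (0.99, adjusted p = 0.0227) or M43 (1.01, adjusted p = 0.0414), and Chac1 without M22 (-3.47, adjusted p = 0.0294), in fits that passed 14.1% and 6.70% of all genes. The fall of Atf4 and Trib3 at 3 weeks is not shown to differ from 6 weeks. For Chac1 the difference turned to 2.30 (adjusted p = 0.392) without M43, M45 and M48. Levels themselves were not compared between time points, since the library names of 3 and 6 weeks begin with different numbers in the labels. What these numbers stand for is not given.

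Several members were high together in single mice. M55, a CD mouse at 3 weeks, was the highest of its group for 8 of the 10 genes, all except Eif2ak3 and Ppp1r15a. Its Hspa5, encoding the ER chaperone BiP, stood at 6419 CPM, against 1189 to 2994 CPM in the other mice at 3 weeks. Creld2 and Hyou1, also ER stress genes, stood at 655 and 1188 CPM in M55, with 113 to 331 and 270 to 652 CPM in the others. M5, an HF+SD-fed mouse at 6 weeks, was the highest of its group for 7 of the 10 genes. Its Hspa5 stood at 6089 CPM, against 1271 to 2721 CPM in the other mice at 6 weeks, with 506 CPM of Creld2 and 396 CPM of Hyou1. Thus 1 mouse on each diet held the high values. M96, a CD mouse at 3 weeks, was lowest of its group for 5 members and had the lowest Hspa5 of its time point, at 1189 CPM.

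**Figure D4:**
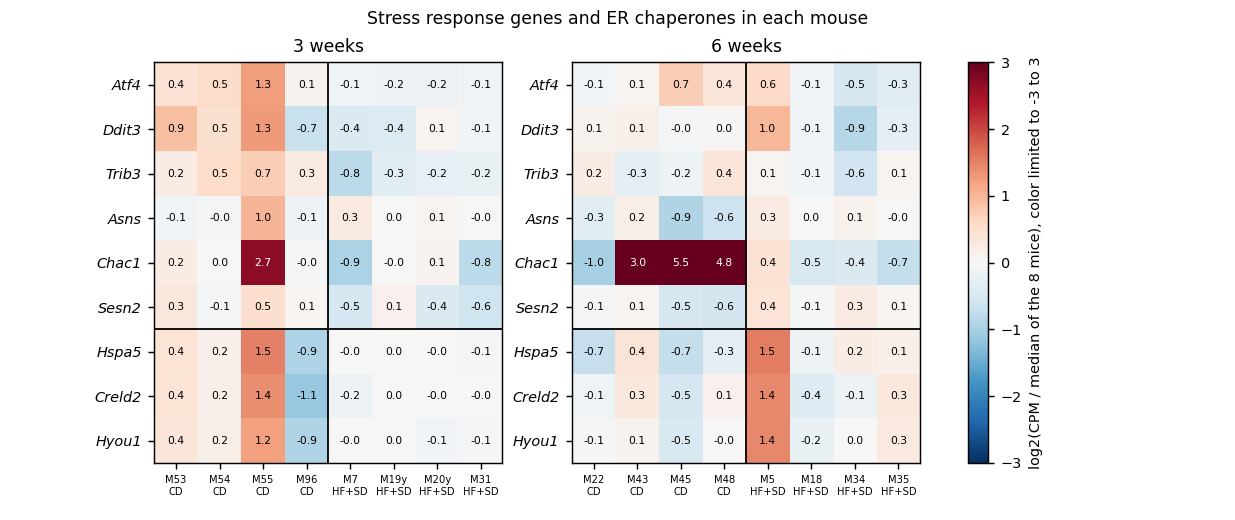
Log2 of CPM over the median of the 8 mice of a time point, for 6 stress response genes and 3 ER chaperone genes (rows) in each mouse (columns, CD left of the line). M55 at 3 weeks and M5 at 6 weeks are raised for Hspa5, Creld2 and Hyou1 along with Atf4 and Ddit3. Chac1 is raised in M55 and in M43, M45 and M48.

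Other genes of the pathway came from 10 lists by role, with 94 of 95 entries found. In the 7 lists of the integrated stress response itself, 66 genes outside the members were tested at each time point. At 3 weeks 4 of the 66 rose and 9 fell, together 19.7% against 14.9% of all genes, with a median log2 fold change of -0.14. At 6 weeks 6 rose and 8 fell, together 21.2% against 21.5% of all genes, with a median of -0.14. The time points share no mice. Where calls are given without M43, M45 and M48, that fit called 5.18% of all genes, so a lost call there comes with fewer calls throughout. Where calls at 3 weeks are given with the muscle score in the model, the share was 10.3%.

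Upstream, the 8 further eIF2α kinases and regulators held 2 called genes at 3 weeks, against 14.9% of all genes called. Ppp1r15b, the constitutive partner of the eIF2α phosphatase, fell (log2 fold change -0.35, SE 0.0864, adjusted p = 0.0253), and Dele1, which relays mitochondrial stress to the kinase HRI, rose (0.25, SE 0.0756, adjusted p = 0.0499). With the muscle score in the model 0 of the 8 were called, at -0.29 for Ppp1r15b and 0.25 for Dele1 (adjusted p = 0.126 and 0.145). Scaled to thyrocyte genes, Dele1 stood at 0.0844 (adjusted p = 0.641). None of the 8 was called at 6 weeks, where Impact, an inhibitor of the kinase GCN2, and Gcn1, its activator, had the lowest p (log2 fold changes -0.23 and 0.28, adjusted p = 0.2 and 0.231). Of 7 further eIF2 and eIF2B subunits, 0 were called at 3 weeks, with -0.35 for Eif2s2 and -0.21 for Eif2s3x. At 6 weeks, where 9.55% of all genes were called lower, Eif2s2 (-0.82, adjusted p = 0.0294) and Eif2b3 (-0.59, adjusted p = 0.0286) fell. Without M43, M45 and M48 their log2 fold changes were -0.29 and -0.25, and neither was called.

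Among 5 partner transcription factors, Cebpb, which pairs with ATF4 and CHOP, fell at both time points. At 3 weeks it stood at 27.5, 22.4, 45.3 and 33.5 CPM on the CD and at 16.6, 13.7, 13.3 and 15.7 CPM on the HF+SD (log2 fold change -1.12, SE 0.20, adjusted p = 0.00529). At 6 weeks its log2 fold change was -0.95 (adjusted p = 0.0356), and M22 lay within the HF+SD range. Jdp2, a repressor of the same family, rose at 6 weeks (0.90, adjusted p = 0.0347). Without M43, M45 and M48, the log2 fold change of Cebpb at 6 weeks was -0.0339 and that of Jdp2 was 0.97, and neither was called. Cebpb also lost its call at 6 weeks without the HF+SD-fed mouse M5, at -0.97 (adjusted p = 0.0712).

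Of 8 amino acid transporters tested, 3 fell at 3 weeks and 0 rose, against 5.78% of all genes called lower and 9.07% higher. Slc6a9, the glycine transporter GLYT1, stood at 34.9, 34.9, 50.8 and 46.7 CPM on the CD and at 17.7, 18.2, 17.4 and 18.9 CPM on the HF+SD, with no overlap (log2 fold change -1.21, SE 0.13, adjusted p = 0.000598). Slc1a5, a glutamine transporter, and Slc38a2, the neutral amino acid transporter SNAT2, fell by less (-0.34 and -0.55, adjusted p = 0.0315 and 0.0468). Slc38a2 was not called with the muscle score in the model, at -0.43, or without the CD mouse M55, at -0.41. At 6 weeks 0 of the 8 were called, with -0.68 for Slc6a9 (adjusted p = 0.0974) and 0.67 for Slc3a2 (adjusted p = 0.102), the heavy chain shared by several transporters. Without M43, M45 and M48, which left 1 CD mouse, the log2 fold change of Slc6a9 at 6 weeks was -1.38.

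The 11 amino acid synthesis genes held 1 rise and 1 fall at 3 weeks, against 9.07% of all genes called higher and 5.78% lower. Got1, an aspartate aminotransferase, rose (0.77, SE 0.21, adjusted p = 0.0349) and Gpt2, the mitochondrial alanine aminotransferase, fell (-0.32, SE 0.0788, adjusted p = 0.0237). At 6 weeks, where 9.55% of all genes were called lower, Gpt2, Cth and Psph fell (-2.19, -1.77 and -0.94, adjusted p = 0.0068, 0.0102 and 0.013). Cth makes cysteine and Psph completes serine synthesis. Without M43, M45 and M48, which left 1 CD mouse, the log2 fold changes of Gpt2, Cth and Psph were -0.76, -0.97 and -0.44. That of Got1 was 1.14. At 3 weeks Gpt2 stood at -0.33 with the muscle score in the model and was not called (adjusted p = 0.0732). Without M55, 4 of the 11 rose at 3 weeks, and Mthfd2, a mitochondrial folate enzyme, went from -0.39 to 0.61 (adjusted p = 0.0141). That fit called 19.4% of all genes, with 11.5% higher. The tRNA list of 13 genes holds synthetases, which charge tRNAs, and Xpot, a tRNA export receptor. It held 0 calls at 3 weeks, where Cars1 and Iars1 had the lowest p (-0.47 and -0.36, adjusted p = 0.25 and 0.255). Lars1 fell at 6 weeks (-0.48, adjusted p = 0.0369), and without those 3 mice it stood at -0.17. Without M5 it stood at -0.48 (adjusted p = 0.0701). Without M55, 2 of the 13 rose at 3 weeks, Aars1 and Gars1 (0.38 and 0.28), against 11.5% of all genes higher in that fit. Mthfd2, Aars1 and Gars1 are named after their values were seen.

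Among 14 further targets, 2 rose and 3 fell at 3 weeks, against 9.07% of all genes called higher and 5.78% lower. Eif4ebp1, encoding the translation repressor 4E-BP1, stood at 24.1, 22.8, 33.2 and 25.1 CPM on the CD and at 15.7, 13.7, 15.5 and 13.3 CPM on the HF+SD (-0.86, SE 0.13, adjusted p = 0.00248). Stc2, a secreted stanniocalcin, fell as well (-0.58, adjusted p = 0.0351). Vegfa, the endothelial growth factor, and Vldlr, a lipoprotein receptor, rose (0.64 and 0.52, adjusted p = 0.0158 and 0.0388). The third that fell, Herpud1, an ER-associated degradation factor, is named after its values were seen (-1.19). With the muscle score in the model Stc2, Vldlr and Herpud1 were not called, at -0.36, 0.58 and -0.42. Without M55, Herpud1 stood at -0.94 (adjusted p = 0.0591).

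At 6 weeks 5 of the 14 rose and 1 fell, against 12.0% of all genes called higher and 9.55% lower. Ddit4, encoding the mTORC1 inhibitor REDD1, stood at 14.2, 20.8, 13.6 and 16.2 CPM on the CD and at 58.6, 47.6, 37.8 and 55.3 CPM on the HF+SD, without overlap (1.62, SE 0.19, adjusted p = 0.00072). Gadd45a, a growth arrest gene, and Tnfrsf10b, a death receptor induced by CHOP, rose too (1.61 and 1.18, adjusted p = 0.0147 and 0.00662). Vegfa and Ero1a, an ER oxidase, also rose and are named after their values were seen (1.01 and 1.07). Eif4ebp1 fell (-1.11, SE 0.19, adjusted p = 0.00411), with 27.3 CPM in M22 against 33.9 to 48.7 CPM in the muscle-rich CD mice and 17.2 to 18.8 CPM on the HF+SD. Without M43, M45 and M48, which left 1 CD mouse, the log2 fold change of Ddit4 was 1.80. Those of Gadd45a, Tnfrsf10b, Vegfa, Ero1a and Eif4ebp1 were 1.28, 0.75, 0.39, 1.01 and -0.61. Vldlr, taken up here after its values were seen, went from -0.82 to 1.38 in that fit. Ero1a was not called without M5, at 0.91.

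**Figure D5:**
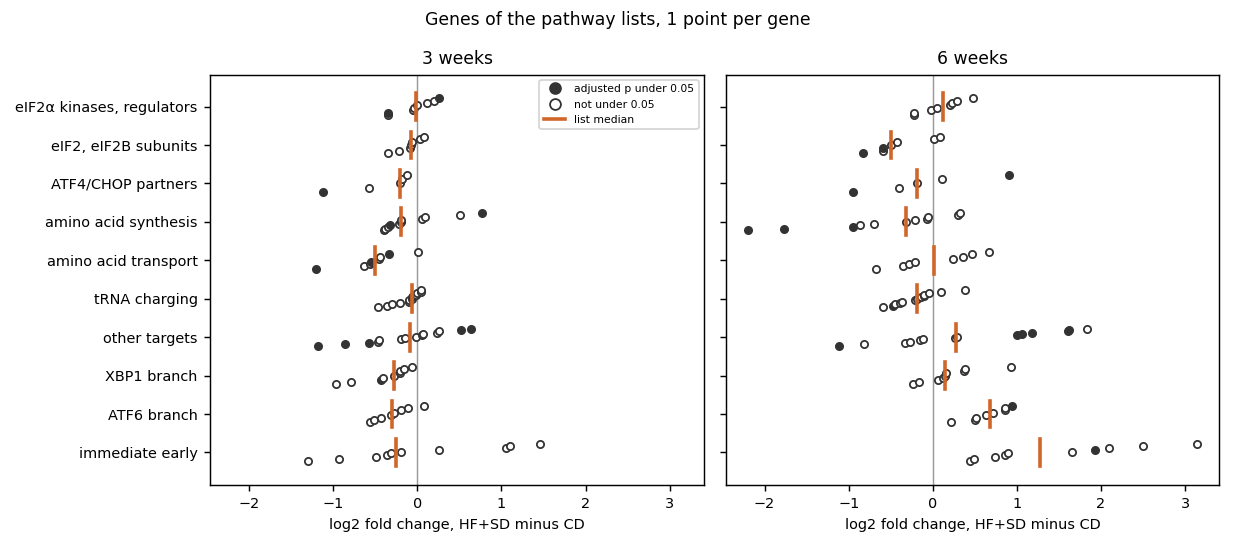
Log2 fold change, HF+SD minus CD, of every tested gene in 10 lists by role at 3 and 6 weeks, filled where the adjusted p was under 0.05, with a bar at the list median. Amino acid transport has its median at -0.51 at 3 weeks and 0.0131 at 6 weeks. The ATF6 branch has its median at -0.30 and 0.68.

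In each sister branch of the unfolded protein response 1 gene was called, against 14.9% of all genes at 3 weeks and 21.5% at 6 weeks. Xbp1, the transcription factor spliced by IRE1, fell at 3 weeks (-0.43, SE 0.12, adjusted p = 0.0372) and was the 1 call among 9 genes of its branch. With the muscle score in the model it stood at -0.30 and was not called (adjusted p = 0.213). At 6 weeks 0 of the 9 were called, where Dnajb9 and Dnajb11 had the lowest p (0.93 and 0.39, adjusted p = 0.198 and 0.279). In the ATF6 branch 0 of 8 were called at 3 weeks, where Hspa5 and Creld2 had the lowest p (-0.56 and -0.52, adjusted p = 0.365 and 0.415). Those values rested on M55, without which they were -0.00748 and 0.00261, and the median of the branch moved from -0.30 to -0.00112. At 6 weeks all 8 had log2 fold changes above 0, with a median of 0.68, and 1 was called. That gene, Calr, encoding the lectin chaperone calreticulin, rose from 1266 ± 114 to 2429 ± 185 CPM (SD, n = 4 each, log2 fold change 0.94, adjusted p = 0.00504). M5 held high values in this branch, and without it 7 of the 8 were above 0 and the median was 0.26, with Hspa5 at 0.34 instead of 0.86 and Calr still called (0.90, adjusted p = 0.0165). Scaled to thyrocyte genes, which moved the median of all genes to -0.68, the median of the branch was -0.0142 and 0 of the 8 were called. With the muscle score in the model at 6 weeks, Calr stood at 0.87 (adjusted p = 0.0108) and Hspa5 at 1.17 (adjusted p = 0.18). Without M43, M45 and M48, Calr stood at 0.84 and Hspa5 at 1.30. Of 10 immediate early genes, Dusp1 rose at 6 weeks (1.92, adjusted p = 0.0442, and 0.0804 without M5) and 0 were called at 3 weeks, where Junb and Fosb had the lowest p (-1.30 and 1.11, adjusted p = 0.0631 and 0.297).

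Per kilobase of exon, Atf4 had the highest mean of the 10 genes in all 4 groups. It stood at 63.3 ± 23.1 and 36.6 ± 0.717 CPM per kb on the CD and HF+SD at 3 weeks and at 63.4 ± 16.2 and 50.2 ± 17.8 at 6 weeks (SD, n = 4). In 3 of the groups it exceeded the next gene by more than the larger SD, and in the HF+SD group at 6 weeks Atf3 followed at 25.9 ± 36.5 CPM per kb. Ddit3, Eif2ak3, Sesn2, Ppp1r15a, Asns and Eif2s1 lay between 9.501 and 16.4 CPM per kb on the CD at 3 weeks, and neighbours in that order did not differ beyond their spread. Trib3 and Chac1 were the lowest in 3 groups, with Chac1 at 0.175 ± 0.0618 CPM per kb on the HF+SD at 3 weeks. On the CD at 6 weeks Chac1 instead ranked above 5 members, at 9.36 ± 9.42 CPM per kb.

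The genes whose levels ran most like a called member were found by Pearson's r of log2 CPM over all 16 libraries, after subtraction of the mean of each time point, among 18928 genes. For Atf4 they were Cdv3 (r = 0.964), Trappc6b (0.95) and Vamp3 (0.945). For Trib3 they were Rnf223 (0.879), Gm11696 (0.873) and Ell (0.87). For Chac1 they were Mpp6 (0.977), Paip2b (0.972) and Pcyt1a (0.97). These are descriptions, since all points share the diets and the muscle content of M43, M45 and M48.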

How the data were processed

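Thyroid RNA of 16 mice was poly(A)-selected and sequenced as 150 bp read pairs. Per the labels, the submitters' processing notes name Trim Galore 0.6.7, STAR, DESeq2 1.36.0, R 4.1.0 and the build mm39. For the annotation release, the counting tool and the strand setting, the entry is: not given in the sources used here. The authors deposited raw counts per gene, with no normalization, and a signal, in which 1 size factor per library divides the raw counts. Tests started from the deposited counts. The deposited signal served the limma alternative. Of the genes in both, 20841 took a name by identifier from GENCODE M21 and 799 did not. Coordinates of promoters are from GRCm38.p6 and were not compared with the authors' build. Groups came from the labels. The label for age holds the time on diet.

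For each time point, edgeR 4.0.16 under R 4.3.3 compared the diets (TMM factors, filterByExpr, glmQLFit, glmQLFTest, Benjamini-Hochberg adjustment over all tested genes). A gene was called at an adjusted p under 0.05. The SE of a log2 fold change is its size over the square root of F. An exact permutation test (two-sided, SciPy 1.17.1) on log2 CPM with a prior count of 2 was run for single values. Its smallest p is 0.0286. The interaction of diet and time point was fitted over all 16 libraries. Between mice of a group the chi-square per gene was 15.1 to 870.7, so mice are the replicates. Alternatives were DESeq2 1.42.0, limma 3.58.1 on log2 of the deposited signal plus 0.5, 1 or 10, other scalings and filters, a fold threshold, a muscle score covariate, 1 fit of all libraries, and each mouse or the muscle-rich mice left out. Counts for the role lists without the muscle-rich mice, M5 or M55 were added after seeing the data. The fit was tested on simulated data. Lengths per kilobase are exon unions of GENCODE M21.

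The members, lists and tests were chosen with earlier results of these data known. All 10 members are named. From each of the 10 other lists the 4 called genes with the lowest p are named at each time point, or the 2 with the lowest p where none was called.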

Additional observations from a re-analysis of the deposited data

Results flagged for a closer look

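In 40 groups of 4 mice, 1 for each gene, diet and time point, the gap of the highest or lowest mouse to its neighbour was divided by the range of the group, and 3 groups passed Dixon's 95% critical value. Chance passes about 1 in 20 groups. For Atf3 on the CD at 6 weeks, M22 stood apart at 34.8 CPM (ratio 0.965). For Asns on the CD at 3 weeks, M55 stood apart at 47.8 CPM (ratio 0.938). For Chac1 on the CD at 3 weeks, M55 stood apart at 2.31 CPM (ratio 0.966). M55 was also the mouse with the highest Hspa5 at 3 weeks, and M22 the CD mouse with the highest immediate early sum at 6 weeks. The cause was not tested.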

How the results depend on the processing

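Of the 10 members, 1 was called at 6 weeks, 2 at 3 weeks and 0 for the difference between time points. At 6 weeks the number was 5 when scaled to thyrocyte genes, where 51.7% of all genes were called and 47.8% were lower, and 0 by limma with each of the 3 pseudocounts, with the muscle score as a covariate and without the muscle-rich CD mice. With each mouse left out it ran from 0 to 2. At 3 weeks it was 4 by DESeq2 (21.5% of all genes called, 9.69% lower) and 4 when scaled to thyrocyte genes (15.7% called, 11.2% lower). It was 1 in the fit of all 16 libraries, and 0 with a fold threshold of 1 on the log2 scale or with the muscle covariate. With each mouse left out it ran from 1 to 3. For the difference it was 1 by DESeq2, where 9.46% of all genes were called, and ran from 0 to 2 with each mouse left out. The cause was not tested.

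Direction turned mostly for values near 0. At 6 weeks, scaling to thyrocyte genes gave log2 fold changes of -0.60 for Eif2ak3, -0.68 for Ddit3, -0.32 for Ppp1r15a, -0.24 for Sesn2 and -0.20 for Asns. Limma gave -0.17 for Ddit3 with pseudocounts of 0.5 and 1 and -0.16 with 10. The muscle covariate gave -0.15 for Eif2ak3, 0.18 for Eif2s1, 0.0789 for Atf4 and -0.0382 for Ppp1r15a. The fit of all libraries gave -0.0119 for Eif2ak3 and -0.0254 for Ddit3. Without M45 and M48 they were -0.10 and -0.0216. Without M43, M45 and M48, the values were -0.26 for Eif2ak3, 0.30 for Eif2s1, 0.0587 for Atf4, -0.0228 for Ddit3, -0.27 for Ppp1r15a and 0.76 for Chac1. That fit left 1 CD mouse, assumed to vary like the others, and called 5.18% of all genes. At 3 weeks the muscle covariate gave 0.0755 for Eif2ak3 and 0.18 for Asns. For the difference between time points, thyrocyte scaling gave -0.16 for Atf4, and Chac1 became 1.58 with the muscle covariate and 2.30 without M43, M45 and M48. With each mouse left out, the ranges that crossed 0 were -0.0675 to 0.17 for Eif2ak3 and -0.45 to 0.25 for Ddit3 at 6 weeks. At 3 weeks they were -0.32 to 0.0312 for Ppp1r15a, -0.30 to 0.00882 for Eif2s1, -0.30 to 0.19 for Asns and -0.75 to 1.53 for Atf3. Direction and side of the threshold were kept in 200 single-gene values with a mouse left out and in 214 under other settings.

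No paired analysis was possible because the groups share no replicate numbers. With 4 mice per group, interval widths limit what absence of a call shows, and Chac1 rests on 13 to 38 counts in its low libraries at 6 weeks.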
